A study of Mus musculus with 12 samples.

Results

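The genes described here are 9 regulators of interferon and cytokine signalling: the transcription factors Stat2, Stat3, Irf1, Irf2, Irf5, Irf7 and Irf9, and the feedback inhibitors Socs1 and Socs3. They were taken by name from the deposited expression tables, and all 9 were found among 29550 genes with at least 1 count. All 9 passed the filter on low counts and are among the 18183 genes tested. The libraries are bulk RNA-seq of mouse cells labelled B16F10, a transplantable melanoma line. The cells carried a guide against Rnf19a (sgRnf19a), which the labels describe as Rnf19a deficient, or the guide sgNC, called control here. Each kind was left untreated or received IR, a treatment whose name the labels do not spell out, with collection after 24 h. There are 3 libraries in each of 4 groups: sgRnf19a with IR (sgRnf19a_IR), sgRnf19a untreated, control with IR (control_IR) and control untreated. Rnf19a encodes a ubiquitin ligase, and the series title concerns the kinase RSK1, the ubiquitin pathway and immune suppression. The labels state neither whether the sgRnf19a cells are a clone or a pool nor whether each library had a culture of its own. The p-values therefore measure the spread between these libraries, which may be technical.

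Interferons bind receptors that carry the kinases JAK1, JAK2 or TYK2. Type I interferon signalling brings STAT2 and IRF9 together in the complex ISGF3, which binds interferon-stimulated response elements (ISRE), while dimers of STATs such as STAT3 bind gamma-activated sites (GAS). IRF7 amplifies type I interferon production, IRF5 acts below Toll-like receptors, IRF1 drives antigen-presentation and GTPase genes, and IRF2 competes with IRF1 for the same elements. STAT3 carries signals of the IL-6 family. SOCS1 and SOCS3 are induced by STATs and shut the JAK kinases or receptors down again, which closes the loop.

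In mm10 coordinates the genes lie on chromosome 10 from 128270559 to 128292849 (Stat2, ENSMUSG00000040033), chromosome 11 from 100885098 to 100939540 (Stat3, ENSMUSG00000004040), chromosome 11 from 53770014 to 53777323 (Irf1, ENSMUSG00000018899) and chromosome 8 from 46739732 to 46847458 (Irf2, ENSMUSG00000031627). Irf5 lies on chromosome 6 from 29526625 to 29541871 (ENSMUSG00000029771), Irf7 on chromosome 7 from 141262706 to 141266481 (ENSMUSG00000025498) and Irf9 on chromosome 14 from 55603571 to 55610030 (ENSMUSG00000002325). Socs1 lies on chromosome 16 from 10782240 to 10785536 (ENSMUSG00000038037) and Socs3 on chromosome 11 from 117966079 to 117970047 (ENSMUSG00000053113).

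The start regions of the genes were searched for these elements, because ISRE and GAS letters are what the ISGF3 and STAT factors among them recognise. RefSeq windows of 300 bases (250 before to 50 after each start, GRCm38.p6) matched 9 of 9 genes, with 2 windows each for Irf1 and Irf9. The ISRE was searched as GAAA, any 2 bases and GAAA, and the GAS as TTCNNNGAA, on both strands. Of 32851 windows of this length, 3.44% hold the ISRE letters and 8.30% the GAS letters. The stretches of 80 bases printed next run 5′ to 3′ in the direction of the gene, and capitals mark the matches. They lie at chr10:128270248-128270327 (Stat2, plus strand), chr11:53769888-53769967 (Irf1, plus), chr8:46739495-46739574 (Irf2, plus), chr16:10785572-10785651 (Socs1, minus) and chr11:117969477-117969556 (Socs3, minus). Stat2 has an ISRE match that reads on the other strand, Irf1 and Socs3 have a GAS match, Irf2 has an ISRE and then a GAS match, and Socs1 has 2 ISRE matches that overlap.
Stat2: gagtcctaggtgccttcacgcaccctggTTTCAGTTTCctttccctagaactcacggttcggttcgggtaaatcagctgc
Irf1: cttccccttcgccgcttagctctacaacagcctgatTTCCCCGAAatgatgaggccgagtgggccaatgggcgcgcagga
Irf2: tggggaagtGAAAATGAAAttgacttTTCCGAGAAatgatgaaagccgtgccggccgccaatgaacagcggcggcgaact
Socs1: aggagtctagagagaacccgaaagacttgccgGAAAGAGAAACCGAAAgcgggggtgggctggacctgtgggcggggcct
Socs3: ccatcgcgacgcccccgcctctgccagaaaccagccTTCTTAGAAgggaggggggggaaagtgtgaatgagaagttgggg
The matches begin 222 bases before the start in Stat2, 90 in Irf1, 241 and 224 in Irf2, 83 and 77 in Socs1 and 154 in Socs3. The windows of Stat3, Irf5, Irf7 and Irf9 hold neither run of letters. A match describes the letters and is not a measured binding site.

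Rnf19a itself was at 18.1, 11.6 and 37.7 CPM in sgRnf19a_IR, 27.4, 25.6 and 22.6 in sgRnf19a, 4.37, 8.06 and 5.39 in control_IR, and 33.5, 29.4 and 21.5 in control. CPM are counts relative to library size, scaled by TMM. It was not lower in the libraries labelled sgRnf19a: the log2 fold change of the guide was 1.92 with IR (edgeR adjusted p = 0.00352) and -0.16 without (edgeR adjusted p = 0.881). Since frameshifted transcripts can persist, the level is no check of the label, and every sgRnf19a group here is one by its label. Library totals ran from 34.3 to 45.6 M counts in the 6 IR-treated libraries and from 62.7 to 71.3 M counts in the 6 untreated ones. Ribosomal RNA took 11.4 to 22.2% of the counts with IR and 0.408 to 0.813% without. The median log2 CPM of 1977 genes with transcripts over 6000 bases, less that of 528 genes under 1000, ran from -0.84 to 0.89 in sgRnf19a_IR, 2.37 to 2.53 in sgRnf19a, -1.29 to -1.07 in control_IR and 1.38 to 2.21 in control. Changes are also given with the length and GC content of transcripts taken into account, called corrected here. The correction moves the median of all genes by 0.11 on the log2 scale for IR in control cells and by -0.13 for the guide in IR-treated cells. Scaling to total counts in place of TMM would shift every log2 fold change of IR by -0.41 in sgRnf19a cells and by -0.44 in control cells.

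Of 8 melanocyte genes, which mark the labelled cell type, 4 were at 0 counts in each of the 12 libraries, namely the pigment-cell genes Mlana, Slc45a2, Tyr and Tyrp1. The lineage factor Mitf averaged 6.68 CPM in sgRnf19a_IR, 15.9 in sgRnf19a, 2.53 in control_IR and 11.4 in control, while Pmel, Sox10 and Dct averaged at most 0.288 CPM in any group. The 8, mostly Mitf, summed to 3.73 to 10.5 CPM in sgRnf19a_IR, 15.8 to 16.4 in sgRnf19a, 2.29 to 3.09 in control_IR and 9.53 to 13.8 in control. The 8 epithelial markers summed to 394 to 684 CPM in sgRnf19a_IR, 559 to 572 in sgRnf19a, 1043 to 1216 in control_IR and 658 to 830.4 in control, with Krt5 at 0 in all 12 libraries. All 8 fibroblast markers were counted in every group, and their sum was 105 to 208 CPM in sgRnf19a_IR, 63.3 to 151 in sgRnf19a, 416 to 446 in control_IR and 488 to 526 in control. The 8 immune-cell markers summed to 24.4 to 53.8 CPM in sgRnf19a_IR, 62.1 to 72.3 in sgRnf19a, 10.6 to 29.8 in control_IR and 52.4 to 61.3 in control, with Cd3e at 0 in all 12 libraries. The 6 endothelial markers summed to 7.42 CPM or less everywhere. The fibroblast and epithelial sums were lower with the guide, and the immune sum was lower with IR, but not every gene followed its sum. Col3a1, which makes up most of the fibroblast sum in control cells, averaged 52.1 CPM in sgRnf19a_IR, 30.0 in sgRnf19a, 347 in control_IR and 418 in control, whereas Col1a2 ran the other way with the guide, at 26.2, 11.6, 9.84 and 9.18 CPM in the same order of groups. Col1a1 averaged 67.6 CPM in sgRnf19a_IR and 54.4 in control_IR. Krt8 averaged 248 CPM in sgRnf19a_IR, 208 in sgRnf19a, 636 in control_IR and 351 in control, and Krt18 was also lower with the guide in both states. Krt19 was lower with the guide only with IR, at 151, 169, 188 and 145 CPM in the same order of groups. Epcam was higher with the guide in both states, at 1.52, 1.34, 1.34 and 0.829 CPM. Within the immune list, Itgam and Ptprc averaged 2.27 and 2.90 CPM in sgRnf19a_IR, against 2.05 and 2.71 CPM in sgRnf19a. The part of these markers in the changes below was not tested. In bulk libraries, fewer cells of a type and less RNA per cell cannot be told apart.

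With IR, 7 of the 9 genes rose in sgRnf19a cells and 7 rose in control cells, where Stat3 also fell. Fold changes are given on the log2 scale with ± SE, and called means an adjusted p under 0.05 in edgeR's quasi-likelihood test with Benjamini-Hochberg adjustment over all genes. Of all genes, 35.6% were called for IR in sgRnf19a cells (18.0% higher) and 47.9% for IR in control cells (22.2% higher). The guide raised 8 of the 9 and lowered Socs3 among IR-treated libraries, where 33.8% of all genes were called (21.0% higher). With only the IR-treated groups in the fit, 6 were called higher. Stat3, Irf2 and Socs3 were then not called (edgeR adjusted p = 0.1045, 0.0706 and 0.05004). Among untreated libraries the guide raised 4 of the 9, Stat2, Irf5, Irf7 and Irf9, where 6.22% of all genes were called (3.02% higher, 3.20% lower). The median log2 fold change of the 9 was 1.29 for IR in sgRnf19a cells, 1.27 for IR in control cells, 0.89 for the guide with IR and 0.21 for the guide without IR. Over all genes the medians were -0.02, -0.02, 0.07 and 0.03 in that order. The IR and guide comparisons share libraries in pairs, so they are not independent of each other.

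After the length and GC correction, 8 of the 9 were called higher for IR in sgRnf19a cells, where 35.7% of all genes were called (19.1% higher, 16.6% lower), and 7 higher for IR in control cells, where 41.7% were called (24.3% higher, 17.3% lower). For the guide, 6 were called higher and 1 lower with IR, against 26.3% of all genes called (11.4% higher, 14.9% lower), and 4 higher and 1 lower without IR, against 8.03% called (4.05% higher, 3.98% lower). Libraries of both groups did not overlap, and were higher, for 7 of the 9 with IR in sgRnf19a cells, where 49.8% of all genes did not overlap (23.2% higher, 26.6% lower). With IR in control cells 7 were higher and 1 lower without overlap, against 62.1% of all genes (30.0% higher, 32.1% lower). For the guide with IR, 8 were higher and 1 lower without overlap, against 42.5% (23.0% higher, 19.5% lower), and for the guide without IR 5 were higher and 2 lower, against 38.2% (22.3% higher, 15.9% lower).

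**Figure D1:**
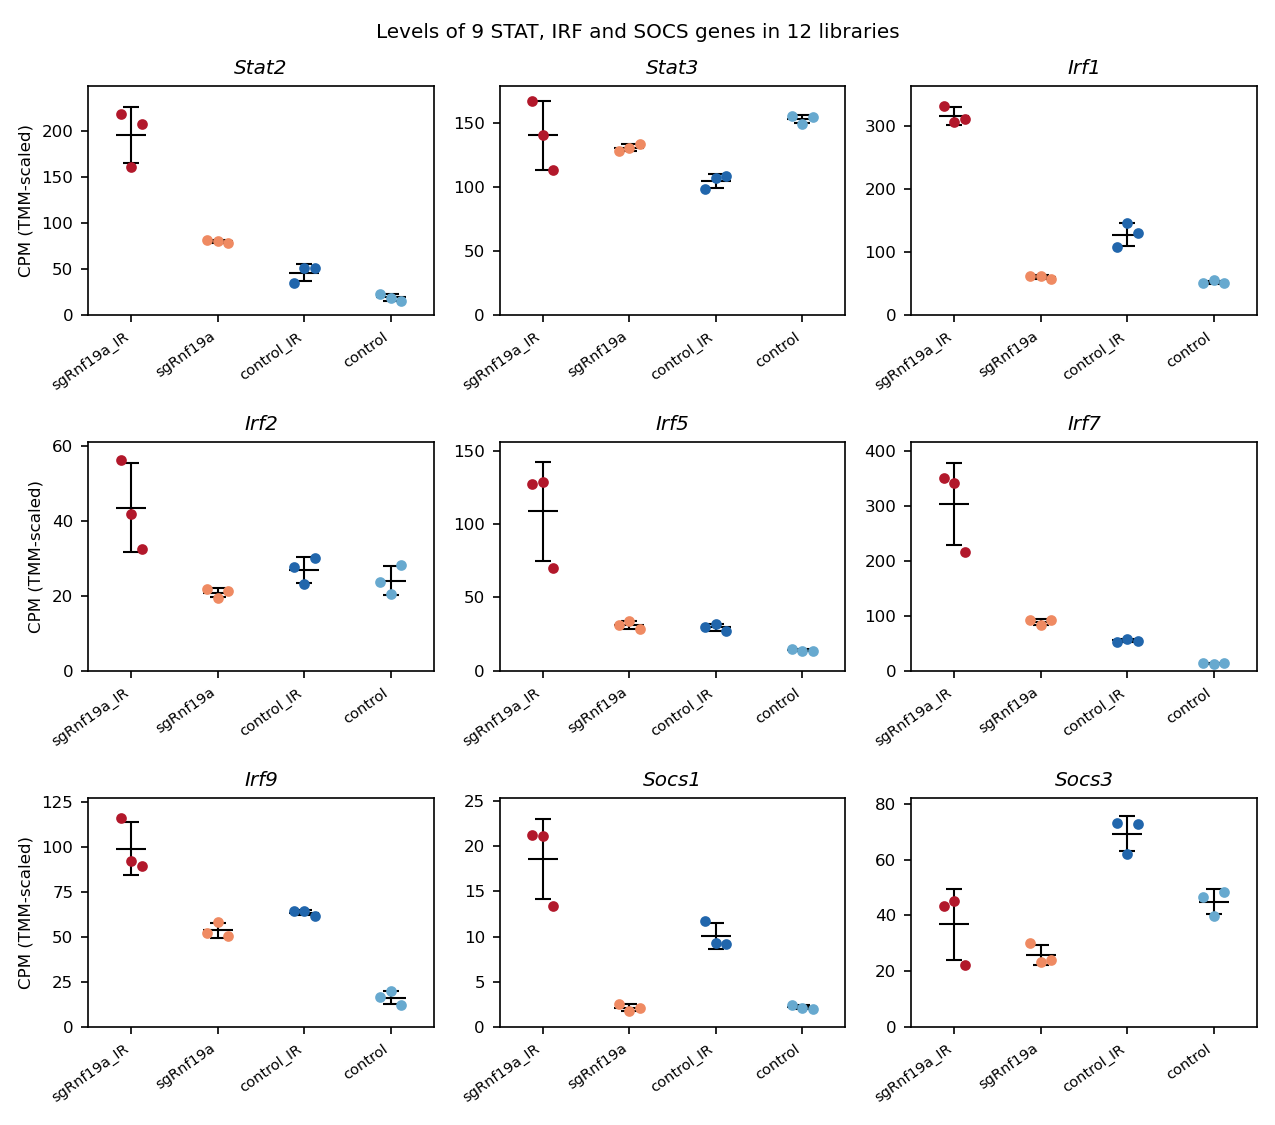
Level of each of the 9 genes in CPM (TMM-scaled, axes from 0) in the 12 libraries; points are libraries, long bars the mean and error bars the SD over 3. Stat2, Irf5 and Irf7 stand in the order sgRnf19a_IR, sgRnf19a, control_IR, control, while Irf1 and Socs1 are high in the IR-treated groups and Socs3 is highest in control_IR.

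Stat2, the STAT that is specific to ISGF3, had 219, 161 and 208 CPM in sgRnf19a_IR, 81.7, 80.9 and 78.4 in sgRnf19a, 35.2, 51.4 and 50.9 in control_IR, and 22.8, 18.6 and 15.6 in control. No 2 of the 4 groups overlap, and untreated sgRnf19a libraries lie above control libraries with IR. The guide raised it 4.28-fold with IR (log2 2.10 ± 0.19, edgeR adjusted p = 2.63e-05) and 4.23-fold without IR (log2 2.08 ± 0.19, edgeR adjusted p = 4.24e-05). IR raised it 2.44-fold in sgRnf19a cells (log2 1.29 ± 0.19, edgeR adjusted p = 0.000390) and 2.41-fold in control cells (log2 1.27 ± 0.19, edgeR adjusted p = 0.000238). The difference between both IR responses was 0.02 on the log2 scale, with a 95% interval from -0.50 to 0.54. Corrected for length and GC content, all 4 changes remained called, at 1.37, 1.45, 2.01 and 2.09 for IR in sgRnf19a cells, IR in control cells, the guide with IR and the guide without.

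Stat3, the STAT of the IL-6 family, had group means from 104 to 153 CPM. It was at 167, 140.2 and 113 CPM in sgRnf19a_IR, 128, 130.1 and 133 in sgRnf19a, 98.0, 107 and 108 in control_IR, and 155, 149 and 154 in control. The control_IR libraries are the lowest, and sgRnf19a_IR spans the range of both untreated groups. IR lowered it in control cells (log2 -0.55 ± 0.14, edgeR adjusted p = 0.00543), but not after the correction (-0.10, edgeR adjusted p = 0.587). With total counts as the scale this change was -0.99, and the deposited FPKM averaged 8.75 in control_IR against 18.0 in control. In sgRnf19a cells the IR change was 0.10 ± 0.14 (edgeR adjusted p = 0.608), came to 0.38 after the correction (edgeR adjusted p = 0.0438) and turned to -0.29 with total counts as the scale. Among IR-treated libraries the guide raised it by 0.43 ± 0.14 (edgeR adjusted p = 0.0322), which was not called after the correction (0.30, edgeR adjusted p = 0.115) or without sgRnf19a_IR replicate 1 or any 1 of control_IR replicates 1, 4 and 5 (edgeR adjusted p from 0.0742 to 0.151). Among untreated libraries every sgRnf19a value lies below every control value, by -0.23 ± 0.14 (edgeR adjusted p = 0.452). On the opposite strand Stat3 overlaps Stat5a by 72 bases, and no source says whether counting used the strand.

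Irf1, a direct interferon-gamma response gene, had 332, 306 and 311 CPM in sgRnf19a_IR, 61.8, 62.1 and 56.9 in sgRnf19a, 108, 145 and 130.0 in control_IR, and 51.0, 54.9 and 50.4 in control. The groups do not overlap, and both IR-treated groups lie above both untreated groups. IR raised it 5.25-fold in sgRnf19a cells (log2 2.39 ± 0.13, edgeR adjusted p = 8.13e-07) and 2.45-fold in control cells (log2 1.29 ± 0.13, edgeR adjusted p = 5.18e-05). With IR the guide raised it 2.48-fold (log2 1.31 ± 0.13, edgeR adjusted p = 3.83e-05), while without IR the change was 0.21 ± 0.13 (edgeR adjusted p = 0.460). The locus also holds the predicted gene Gm17334 on the opposite strand over 907 bases, at a mean of 224 counts a library against 6120.5 for Irf1.

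Irf2, the competitor of Irf1, was at 56.4, 41.9 and 32.6 CPM in sgRnf19a_IR, 21.9, 19.6 and 21.3 in sgRnf19a, 27.7, 23.3 and 30.1 in control_IR, and 23.8, 20.4 and 28.2 in control. The sgRnf19a_IR group lies above the rest, and the other 3 groups are close together. IR raised it 2.09-fold in sgRnf19a cells (log2 1.06 ± 0.20, edgeR adjusted p = 0.00174). In control cells the IR change was 0.16 ± 0.20 (edgeR adjusted p = 0.533), was called as a rise of 0.81 after the correction (edgeR adjusted p = 0.0211) and turned to -0.27 with total counts as the scale. The guide raised it by 0.69 with IR (SE 0.20, edgeR adjusted p = 0.0199), which was lost after the correction (0.20, edgeR adjusted p = 0.609) and without sgRnf19a_IR replicate 1 (0.45) or control_IR replicate 1 (0.70) or 4 (0.60). Without IR the guide's change was -0.21 ± 0.20 (edgeR adjusted p = 0.682).

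Irf5 and Irf7 are mostly studied in immune cells, and both were counted here at levels far above 0. Irf5 had 127, 129 and 70.0 CPM in sgRnf19a_IR, 31.5, 34.2 and 28.6 in sgRnf19a, 29.8, 31.8 and 27.2 in control_IR, and 14.9, 13.5 and 13.7 in control. Control libraries with IR overlap untreated sgRnf19a libraries, and replicate 4 of sgRnf19a_IR is well below the other two. IR raised Irf5 3.46-fold in sgRnf19a cells (log2 1.79 ± 0.21, edgeR adjusted p = 0.000111) and 2.11-fold in control cells (log2 1.08 ± 0.20, edgeR adjusted p = 0.000970). With the guide it rose 3.67-fold with IR (log2 1.87 ± 0.21, edgeR adjusted p = 9.60e-05) and 2.24-fold without (log2 1.16 ± 0.20, edgeR adjusted p = 0.00437). Its 3′ end overlaps Tnpo3, which runs on the opposite strand, by 1045 bases, and Tnpo3 averaged 7517 counts against 2095 for Irf5, so reads in the overlap are uncertain.

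Irf7, the amplifier of type I interferon, was at 351, 341 and 217 CPM in sgRnf19a_IR, 91.9, 83.2 and 93.2 in sgRnf19a, 52.2, 58.8 and 55.1 in control_IR, and 13.9, 12.1 and 13.9 in control. The 4 groups are ordered as for Stat2 and none overlaps another. The guide's change in Irf7 was the largest among the 9 genes in both states, 5.47-fold with IR (log2 2.45 ± 0.18, edgeR adjusted p = 4.30e-06) and 6.71-fold without IR (log2 2.75 ± 0.18, edgeR adjusted p = 4.66e-06). IR raised it 3.39-fold in sgRnf19a cells (log2 1.76 ± 0.17, edgeR adjusted p = 5.18e-05) and 4.15-fold in control cells (log2 2.05 ± 0.18, edgeR adjusted p = 2.95e-05). Irf7 overlaps Phrf1 on the opposite strand by 45 bases.

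Irf9, the DNA-binding subunit of ISGF3, had 116, 92.2 and 89.5 CPM in sgRnf19a_IR, 52.2, 58.2 and 50.7 in sgRnf19a, 64.3, 64.5 and 61.8 in control_IR, and 16.6, 20.02 and 12.3 in control. The groups do not overlap, and untreated control stands apart at the low end. IR raised it 1.85-fold in sgRnf19a cells (log2 0.89 ± 0.17, edgeR adjusted p = 0.00213) and 3.90-fold in control cells (log2 1.96 ± 0.18, edgeR adjusted p = 3.77e-05). With the guide it rose 1.56-fold with IR (log2 0.64 ± 0.17, edgeR adjusted p = 0.0141; 0.0521 without control_IR replicate 5) and 3.29-fold without IR (log2 1.72 ± 0.18, edgeR adjusted p = 8.71e-05). On deposited FPKM its IR change in sgRnf19a cells was not called (0.39 on the log2(FPKM + 1) scale, limma adjusted p = 0.0666). Irf9 overlaps Rnf31 on the same strand by 123 bases.

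Socs1, the inhibitor of JAK kinases below interferon receptors, was the lowest of the 9 per length in untreated cells. It had 21.3, 21.1 and 13.4 CPM in sgRnf19a_IR, 2.48, 1.71 and 2.12 in sgRnf19a, 11.7, 9.24 and 9.18 in control_IR, and 2.41, 2.09 and 1.96 in control. Both untreated groups overlap, at 132 to 186 counts a library, where about 4 counts seem to stand for 1 read pair. IR raised it 8.82-fold in sgRnf19a cells (log2 3.14 ± 0.23, edgeR adjusted p = 6.84e-06) and 4.66-fold in control cells (log2 2.22 ± 0.23, edgeR adjusted p = 5.64e-05), the largest IR change among the 9 genes in each. With IR it rose 1.85-fold with the guide (log2 0.89 ± 0.22, edgeR adjusted p = 0.00946), and without IR the change was -0.03 with a 95% interval from -0.46 to 0.40 (edgeR adjusted p = 0.967).

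Socs3, the inhibitor that acts on gp130-type receptors, ran the other way with the guide. It was at 43.2, 45.2 and 22.2 CPM in sgRnf19a_IR, 30.0, 23.2 and 24.1 in sgRnf19a, 72.9, 62.2 and 72.8 in control_IR, and 46.5, 39.9 and 48.4 in control. Every sgRnf19a library lies below every control library of the same treatment. The guide lowered it with IR (log2 -0.91 ± 0.23, edgeR adjusted p = 0.0113; -0.48 after the correction, edgeR adjusted p = 0.0364). The fall with IR was called in 8 of 9 processing alternatives, but not with only the IR-treated groups in the fit (edgeR adjusted p = 0.05004). Without IR the change was -0.80 ± 0.23 (edgeR adjusted p = 0.0687), and it was called after the correction (-0.63, edgeR adjusted p = 0.0216). The IR change in control cells was called at 0.62 ± 0.23 (edgeR adjusted p = 0.0417) but came to 0.19 after the correction (edgeR adjusted p = 0.335) and was lost when any 1 of control_IR replicates 1, 4 and 5 or control replicates 1, 2 and 3 was left out (edgeR adjusted p from 0.0587 to 0.132). In sgRnf19a cells it was 0.51 ± 0.23 (edgeR adjusted p = 0.105), and 0.77 without sgRnf19a_IR replicate 4 (edgeR adjusted p = 0.000590).

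**Figure D2:**
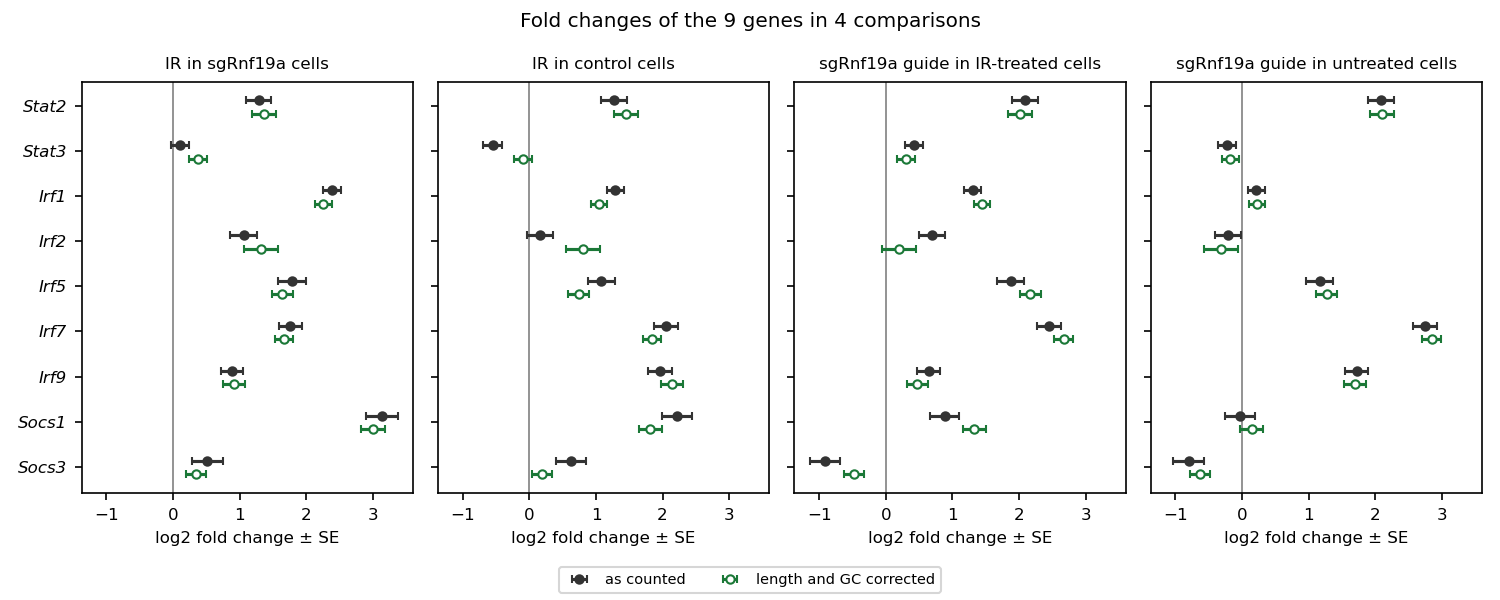
Log2 fold change ± SE of the 9 genes in the 4 comparisons, as counted (filled) and corrected for length and GC (open); the grey line marks no change. Stat2, Irf1, Irf5, Irf7 and Irf9 lie right of the line in all 4 panels with either value, and the widest gap between both values is that of Irf2 for IR in control cells, 0.16 and 0.81.

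The IR response was compared between the genotypes gene by gene. Only Irf1 of the 9 was called, with a response that was larger in sgRnf19a cells by 1.10 on the log2 scale (SE 0.18, edgeR adjusted p = 0.0255), against 0.682% of all genes called (0.544% higher, 0.137% lower). With the correction 2 of the 9 were called higher and 1 lower, against 1.93% of all genes (1.13% higher, 0.793% lower). The adjusted p of Irf1 was above the threshold without sgRnf19a_IR replicate 1, control_IR replicate 1 or 5, or any 1 untreated library (from 0.0508 to 0.0967), and the log2 difference then ran from 0.99 to 1.13. Irf9 differed in the other direction, by -1.08 ± 0.24 (edgeR adjusted p = 0.0672), and this was called after the correction (-1.22, edgeR adjusted p = 0.0215). Socs1 differed by 0.92 ± 0.31 (edgeR adjusted p = 0.136), called after the correction at 1.19 (edgeR adjusted p = 0.0303). For Irf2, Irf5 and Stat3 the differences were 0.90, 0.71 and 0.66 (edgeR adjusted p = 0.118, 0.187 and 0.109). Leaving out sgRnf19a_IR replicate 4 brought 6 of the 9 past the threshold, against 500 of 19217 genes called in all, and leaving out sgRnf19a_IR replicate 1 brought 0, against 34 of 19478.

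**Figure D3:**
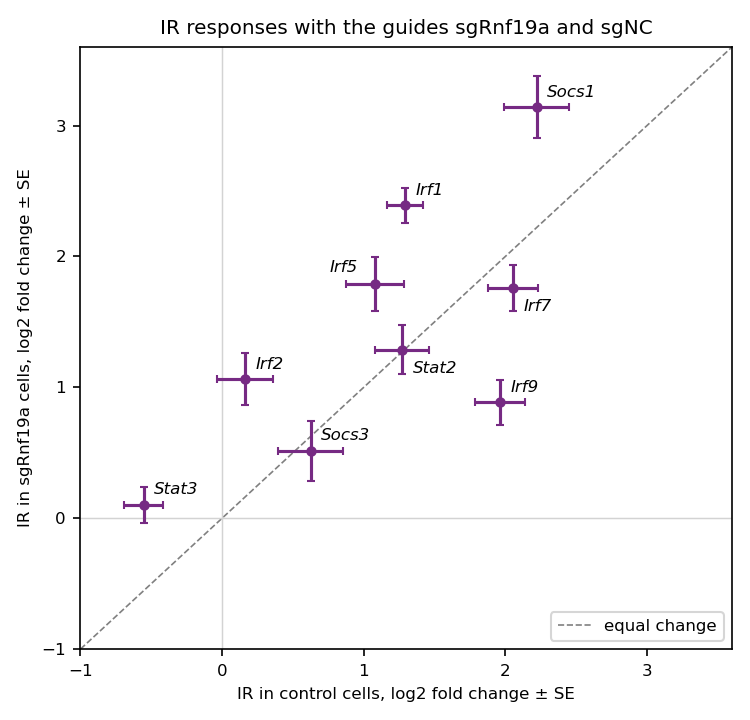
IR response of each gene in sgRnf19a cells (vertical) against control cells (horizontal), log2 fold change ± SE; the dashed line marks equal responses. Irf1, at 2.39 and 1.29, lies above the line by more than its errors, Irf9 lies below it, and Stat2 lies on it.

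The levels of different genes were set side by side on the deposited FPKM, which are per transcript length. In sgRnf19a_IR, Irf7 and Irf1 were the highest at 64.1 ± 17.5 and 63.9 ± 9.90 FPKM (SD, n = 3), and their libraries overlap. In untreated sgRnf19a, Irf7 led at 26.0 ± 1.82 FPKM, above Irf1 at 16.6 ± 0.917 FPKM. In control_IR, Irf1 at 25.7 ± 4.78 and Socs3 at 19.1 ± 1.69 FPKM led and overlap by library. In untreated control, Stat3 at 18.0 ± 0.250 FPKM and Socs3 at 17.4 ± 1.66 FPKM led and overlap, followed by Irf1 at 14.7 ± 0.831 FPKM, while the ISGF3 subunits Stat2 and Irf9 stood at 3.58 ± 0.640 and 3.39 ± 0.815 FPKM. Socs1 was lowest in untreated control (0.826 ± 0.0748 FPKM) and in untreated sgRnf19a (0.792 ± 0.160 FPKM), both below every other gene there. In sgRnf19a_IR, Irf2 at 4.76 ± 1.71 and Socs1 at 5.09 ± 1.33 FPKM were lowest and overlap. In control_IR, Irf2 at 2.91 ± 0.409 and Socs1 at 2.74 ± 0.256 FPKM overlap at the low end.

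**Figure D4:**
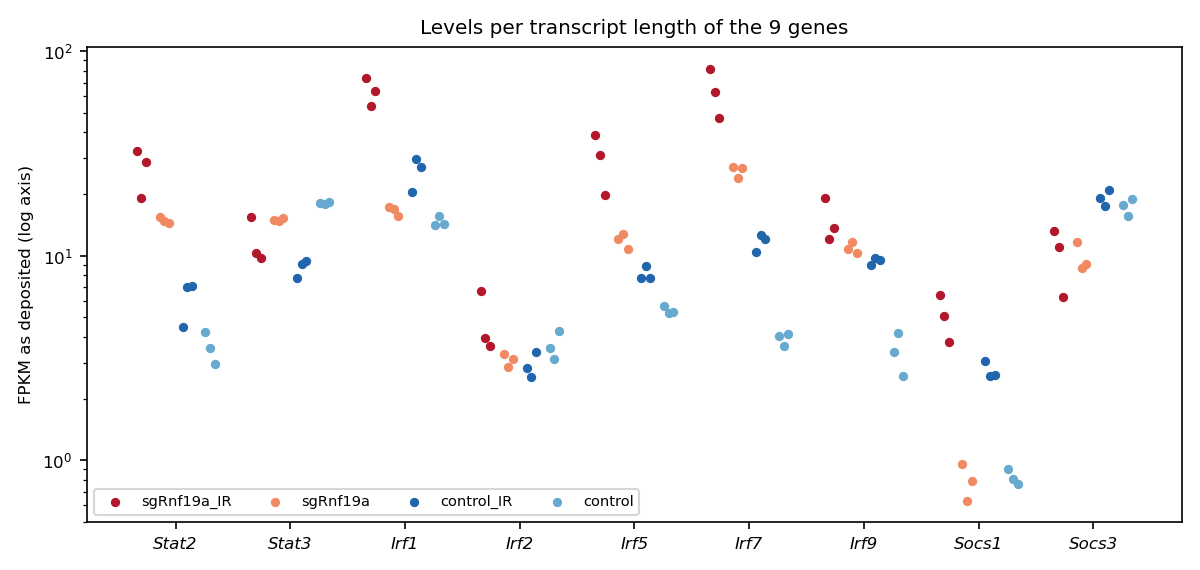
Deposited FPKM of the 9 genes in each library on a log axis, coloured by group. Irf7 spans the widest range, with means of 64.1 FPKM in sgRnf19a_IR and 3.94 FPKM in control, whereas Irf2 keeps within a narrow band of group means from 2.91 to 4.76 FPKM.

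Of 15 further STAT, IRF and SOCS genes, 13 were tested. IR raised 3 and lowered 3 in sgRnf19a cells, and raised 3 and lowered 3 in control cells. The shares of all genes called with IR were 18.0% higher and 17.6% lower in sgRnf19a cells, and 22.2% and 25.7% in control cells. The inhibitors Socs4 and Socs6 were among those that fell in control cells, at -2.42 and -1.02. After the length and GC correction Socs4 came to -0.36 (edgeR adjusted p = 0.0275), while Socs6 turned to a rise of 0.78 (edgeR adjusted p = 0.00600). The guide with IR raised 5 of the 13 and lowered 2, against 21.0% and 12.8% of all genes. After the correction it raised 1 and lowered 1, against 11.4% and 14.9%. Without IR it raised 1 and lowered 0, against 3.02% and 3.20%. With a library left out, the 5 rises with IR came to between 1 and 5. The 2 falls with IR were Irf3 and Irf8 (-0.59 and -0.57, edgeR adjusted p = 0.0265 and 0.0448). Of these, Irf8 was still called after the correction (-0.61). Neither fall was called without any 1 of the control_IR libraries, and without sgRnf19a_IR replicate 4 the list had 1 fall. The 3 raised by IR in sgRnf19a cells came to 1 without sgRnf19a_IR replicate 1 and to 6 without sgRnf19a_IR replicate 4. Irf3, which is activated by phosphorylation below nucleic acid sensors, rose with IR in control cells (0.91, edgeR adjusted p = 0.00138) and changed by 0.30 in sgRnf19a cells (edgeR adjusted p = 0.221). Cish rose with IR in sgRnf19a cells (0.76, edgeR adjusted p = 0.0134).

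Among 15 ligands, 11 were tested, and Ifng and Ifnl2 had 0 counts in all 12 libraries. Ifnb1, one of the type I interferons that ISGF3 answers to, had 23.9, 28.4 and 22.4 CPM in sgRnf19a_IR, 0.214, 0.143 and 0.400 in sgRnf19a, 16.3, 23.2 and 23.8 in control_IR, and 0.235, 0.143 and 0.205 in control. It was near 0 in all 6 untreated libraries and high in all 6 IR-treated ones, with IR changes of 6.62 in sgRnf19a cells and 6.75 in control cells (edgeR adjusted p = 6.05e-07 and 1.68e-06). The guide's change was 0.24 with IR and 0.37 without (edgeR adjusted p = 0.534 and 0.694). Ifna4, another type I interferon from a family of near-identical genes whose reads are uncertain, had 6.34, 4.93 and 6.71 CPM in sgRnf19a_IR, 0.0534, 0.0909 and 0 in sgRnf19a, 0.355, 0.918 and 1.10 in control_IR, and 0 in every control library. Its IR-treated libraries were higher with the guide without overlap, by 2.91 ± 0.62 on the log2 scale (edgeR adjusted p = 0.00680). IR raised 5 ligands and lowered 1 (Clcf1) in sgRnf19a cells, and raised 7 in control cells. The 1 fall came to 2 without sgRnf19a replicate 2. Over all genes, 18.0% were called higher and 17.6% lower with IR in sgRnf19a cells, and 22.2% and 25.7% in control cells. Il15, a cytokine and known IRF1 target, was at 12.8, 12.3 and 11.8 CPM in sgRnf19a_IR, 0.387, 0.416 and 0.482 in sgRnf19a, 4.30, 5.02 and 4.64 in control_IR, and 1.43, 1.44 and 0.999 in control. The guide raised it with IR (1.40, edgeR adjusted p = 0.000474) and lowered it without IR (-1.58, edgeR adjusted p = 0.000549). The 3 untreated sgRnf19a libraries held 96 counts of Il15 in all. Lif, a ligand of the STAT3 pathway, rose with the guide in both states (1.36 with IR, 1.23 without, edgeR adjusted p = 0.000152 and 0.000510).

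All 15 receptors and JAK kinases were tested, and more fell than rose with IR: 5 fell and 1 rose (Ifngr2) in sgRnf19a cells, and 7 fell and 2 rose (Ifnar2 and Ifngr2) in control cells. Of all genes, 17.6% were called lower and 18.0% higher in sgRnf19a cells, and 25.7% lower and 22.2% higher in control cells. After the length and GC correction 5 of the list fell and 3 rose in sgRnf19a cells, and 6 fell and 4 rose in control cells. The type I receptor chain Ifnar1 fell by 0.65 in sgRnf19a cells and by 0.77 in control cells on the log2 scale (edgeR adjusted p = 0.00440 and 0.000866). Jak1 was at 87.7, 55.1 and 163 CPM in sgRnf19a_IR, 218, 224 and 217 in sgRnf19a, 37.7, 55.2 and 47.4 in control_IR, and 244, 242 and 190.3 in control. Its IR changes were -1.11 in sgRnf19a cells and -2.27 in control cells (edgeR adjusted p = 0.0148 and 0.000175), or -0.88 and -1.57 after the correction. Jak2 was at 29.2, 18.4 and 80.2 CPM in sgRnf19a_IR, 82.4, 94.3 and 90.0 in sgRnf19a, 5.01, 6.77 and 4.96 in control_IR, and 50.9, 52.3 and 34.5 in control. The guide raised Jak2 with IR (2.93, edgeR adjusted p = 0.000848; 1.97 after the correction), and replicate 4 is the highest of sgRnf19a_IR for both kinases. Il6st, the shared IL-6 family receptor chain, fell in both IR comparisons (-0.61 in sgRnf19a cells, -1.28 in control cells) but not after the correction (-0.04 and -0.12). Ifngr1 and Tyk2 were called in none of the 4 comparisons as counted. After the correction Tyk2 was called higher for the guide without IR (0.72, edgeR adjusted p = 0.00309) and for IR in control cells (0.37, edgeR adjusted p = 0.0367). Ifngr1 was called lower after the correction for the guide with IR (-0.39, edgeR adjusted p = 0.0402). The other corrected changes of both genes were not called. In sgRnf19a cells the 5 falls came to 3 without sgRnf19a_IR replicate 1 or sgRnf19a replicate 2, and the 1 rise to 2 without sgRnf19a_IR replicate 3 or 4. In control cells the 2 rises came to 1 without any 1 of the 6 libraries.

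Of 10 activators that lie upstream of the IRFs, 2 rose and 4 fell with IR in sgRnf19a cells and likewise 2 and 4 in control cells. Over all genes, 18.0% were called higher and 17.6% lower in sgRnf19a cells, and 22.2% and 25.7% in control cells. Myd88, the adaptor through which IRF5 and IRF7 are reached from Toll-like receptors, was among those that rose in both (1.88 in sgRnf19a cells, 1.14 in control cells, edgeR adjusted p = 3.74e-06 and 8.00e-05). Tbk1, the kinase of IRF3 and IRF7, fell in control cells (-1.93, edgeR adjusted p = 0.000305) and was higher with the guide among IR-treated libraries (1.99, edgeR adjusted p = 0.000848). Of 14 other inhibitors and cofactors, IR raised 3 and lowered 3 in sgRnf19a cells and raised 3 and lowered 4 in control cells. The shares of all genes are those given for the activators. Usp18, which blocks the type I receptor chain IFNAR2, was at 1097, 1085 and 918 CPM in sgRnf19a_IR, 67.9, 57.1 and 63.3 in sgRnf19a, 103, 152 and 123 in control_IR, and 16.7, 17.1 and 17.6 in control. Its changes were 4.04 for IR in sgRnf19a cells, 2.88 for IR in control cells, 3.04 for the guide with IR and 1.87 for the guide without (edgeR adjusted p = 1.23e-07, 1.91e-06, 5.90e-07 and 1.82e-05). Ptpn2, a phosphatase of STATs, fell by 0.76 with IR in control cells (edgeR adjusted p = 0.0171), but after the correction it rose by 0.44 (edgeR adjusted p = 0.0104). Ptpn6, another phosphatase of the pathway, was lower with the guide without IR (-1.23, edgeR adjusted p = 0.00234). The 3 raised and 3 lowered inhibitors in sgRnf19a cells came to 5 raised without sgRnf19a_IR replicate 4 and to 1 lowered without sgRnf19a replicate 1.

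The textbook targets of these factors were read in the same comparisons. Of 15 ISGF3 targets, 13 rose with IR in sgRnf19a cells, 11 with IR in control cells, 15 with the guide with IR and 14 with the guide without IR. Their median log2 fold changes were 3.31, 1.85, 3.55 and 2.23 in that order. In the same order, 18.0%, 22.2%, 21.0% and 3.02% of all genes were called higher. Rtp4, a chaperone of receptors and a strong interferon target, had 403, 414 and 419 CPM in sgRnf19a_IR, 87.4, 89.5 and 91.4 in sgRnf19a, 31.2, 37.8 and 36.2 in control_IR, and 4.55, 3.58 and 4.74 in control. It shows the same group order as Stat2 and Irf7, and the guide's change was 3.55 with IR and 4.38 without (edgeR adjusted p = 1.16e-07 and 3.98e-08). The ubiquitin-like Isg15 rose by 3.70 with IR in control cells (edgeR adjusted p = 1.91e-06), and Ifit1, which binds foreign RNA, by 5.65 with IR in sgRnf19a cells (edgeR adjusted p = 1.24e-06). With each library left out in turn, the counts of rises ran from 12 to 14 for the guide without IR and stayed at 13, 11 and 15 in the other 3 comparisons; without control_IR replicate 4, 1 target was called lower with IR in control cells.

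Of 14 tested IRF1 targets, 13 rose with IR in sgRnf19a cells and 10 in control cells, where 1 (Casp4) fell. The guide raised 13 with IR, and raised 10 and lowered 1 (Il15) without IR. Medians were 2.19, 1.42, 3.01 and 1.71. The shares of all genes called higher were 18.0%, 22.2%, 21.0% and 3.02% in the same order. Igtp, an interferon-inducible GTPase, was at 875, 687 and 956 CPM in sgRnf19a_IR, 58.8, 56.6 and 62.9 in sgRnf19a, 44.3, 73.8 and 54.5 in control_IR, and 9.09, 8.75 and 8.03 in control. Here sgRnf19a without IR and control with IR overlap. The guide raised the immunoproteasome subunit Psmb8 by 2.56 with IR and by 2.51 without (edgeR adjusted p = 2.31e-06 and 4.66e-06), although Irf1 itself was not called for the guide without IR. Casp4 was not called as a fall without control_IR replicate 1 or 5 or control replicate 1.

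STAT3 targets, 15 in number, behaved less uniformly. IR raised 7 and lowered 1 (Hif1a) in sgRnf19a cells, and raised 7 and lowered 2 (Bcl6 and Hif1a) in control cells. Over all genes, 18.0% were called higher and 17.6% lower in sgRnf19a cells, and 22.2% and 25.7% in control cells. The immediate early gene Fos rose in both, by 1.01 in sgRnf19a cells and 1.47 in control cells (edgeR adjusted p = 0.00148 and 0.000116). With IR the guide raised Bcl6 and Hif1a and lowered Myc and Saa3, and of these Hif1a was not called after the correction. Without IR it lowered Myc and Pim1, and the other 13 were not called. For the guide, 21.0% of all genes were called higher and 12.8% lower with IR, and 3.02% and 3.20% without. Myc was at 6.43, 6.90 and 4.63 CPM in sgRnf19a_IR, 4.72, 3.95 and 3.995 in sgRnf19a, 9.27, 8.78 and 10.7 in control_IR, and 9.96, 10.6 and 10.3 in control. The sgRnf19a libraries lie below the control libraries with and without IR (log2 fold change -1.29 without IR, edgeR adjusted p = 0.000905), the direction that Socs3 also took. The 7 rises in sgRnf19a cells came to 4 without sgRnf19a_IR replicate 1. The guide's 2 falls with IR came to 0 without control_IR replicate 5, to 1 without sgRnf19a_IR replicate 1 or control_IR replicate 1 or 4, and to 5 without sgRnf19a_IR replicate 3. Its 2 rises with IR came to 1 without control_IR replicate 1, and its 2 falls without IR came to 1 without sgRnf19a replicate 2 or 3 or control replicate 1 or 3.

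**Figure D5:**
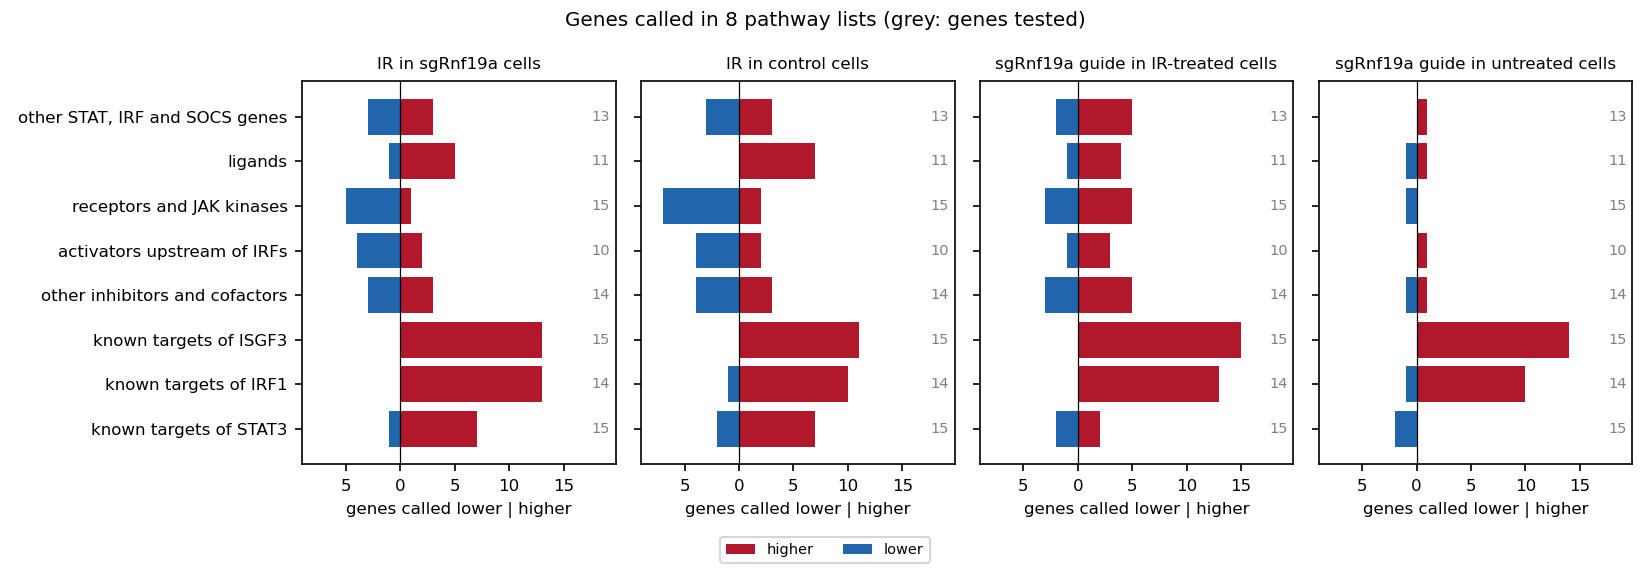
Genes called higher (red, right) and lower (blue, left) in 8 pathway lists for the 4 comparisons, as counted, with the number tested in grey. ISGF3 and IRF1 targets were called mostly higher in every panel, up to 15 of 15 with the guide in IR-treated cells, while receptors and JAK kinases were called lower more often than higher with IR.

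The profiles of the 9 genes over the 12 libraries were compared with those of 10740 genes by Pearson's r of log2(CPM + 1), as a description over 4 groups of libraries that share their group differences. Stat2 was closest to Helz2 (r = 0.992), Dhx58 (0.990) and Trim34a (0.990), and Irf7 to Apol9b (0.994), Dhx58 (0.994) and Apol9a (0.993). Dhx58 encodes the RNA sensor LGP2 and is thus near both. Irf1 was closest to Egflam (0.994), Bid (0.992) and Ube2l6 (0.992), and Irf5 to Tapbp (0.992), Arid5a (0.989) and Parp12 (0.987). Socs1 was closest to the adaptor gene Myd88 (0.995), Cxcl11 (0.984) and Pnp (0.983). Irf9 was closest to P2rx5 (0.975), mt-Tp (0.975) and Rnf31 (0.952), of which Rnf31 is its overlapping neighbour. Lower values belong to Irf2 (Susd6 0.958, Cited2 0.957, Arpc5 0.936) and Stat3 (Etv6 0.911, Abi1 0.886, Creld2 0.873). Socs3 was closest to Irf8 (0.980), Itgb7 (0.977) and Samm50 (0.977). Among the 9 themselves, Stat2 and Irf7 (0.976), Irf5 and Irf7 (0.963), Irf1 and Socs1 (0.951) and Stat2 and Irf5 (0.928) were the closest pairs, while no other member came above 0.230 with Stat3 or above 0.363 with Socs3.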

How the data were processed

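The authors deposited, per the file headers, estimated counts per gene and FPKM for each library. Libraries were rRNA-depleted and strand-marking, per the labels' protocols; whether counting used the strand is not given in the sources used here. The submitters' processing notes name Bowtie2, HTSeq, DESeq2, mm10 and GRCm39, with no roles. Another 12 columns of per-sample values were not used. IR-treated libraries carry the numbers in the column names (1, 3 and 4 for sgRnf19a_IR, 1, 4 and 5 for control_IR), which differ from the labels' numbers, and their columns were placed by elimination.

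The counts, whole numbers as deposited, were filtered with filterByExpr (minimum count 10, minimum total 15; 18183 of 55401 genes), normalized with TMM and modelled across the 12 libraries in edgeR 4.0.16 (quasi-likelihood, Benjamini-Hochberg adjustment, threshold 0.05) in R 4.3.3. The SE is the log2 fold change over the square root of F. The length and GC correction used splines with 5 degrees of freedom on the longest GENCODE M21 transcript, for 18159 genes. FPKM were tested with limma 3.58.1 on log2(FPKM + pseudocount), pseudocounts 1 and 0.1, which understates low genes. DESeq2 1.42.0, other scalings, a replicate block and leaving out each library were alternatives; leaving libraries out of the list counts was chosen after seeing the data. The fits were tested on simulated data. Within groups, libraries differed beyond counting noise (chi-square per degree of freedom 7.25 to 127, on counts divided by 4).

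The genes and the 8 pathway and 5 marker lists were chosen with earlier results of these data known. Named are all 9 genes, 13 fixed pathway genes, Rnf19a, up to 2 called genes with the smallest p per list and comparison, and the 3 most alike genes per member. Other genes were named after their values were seen. Some values are not reported here.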

Additional observations from a re-analysis of the deposited data

Results flagged for a closer look

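The IR response differed between sgRnf19a and control cells, by the interaction term of edgeR's quasi-likelihood fit, for Irf1 and for 8 of the named pathway genes. The 8 were picked as the called genes with the smallest p, up to 2 per list, so their being called follows from the choice. In full, 2 of 11 tested ligands, 1 of 15 receptors and JAK kinases and 2 of 14 other inhibitors and cofactors were called. Among targets, 4 of 15 for ISGF3 and 4 of 14 for IRF1 were called, against 0.682% of all genes. With a library left out, the targets called higher ran from 0 to 9 for ISGF3 and from 1 to 9 for IRF1. The lists were chosen with earlier results of these data known, so the share over all genes is no independent test of them. Most calls of the 9 genes given here depended on single libraries. The log2 difference, sgRnf19a less control, was 1.10 for Irf1 (adjusted p = 0.0255). Among ligands it was 2.98 for Il15 (adjusted p = 0.00492) and 2.86 for Il6 (adjusted p = 0.0470; 0.0573 after the length and GC correction). For the receptor Lifr it was 2.61 (adjusted p = 0.0470), which does not stand for a rise with IR. Every control_IR library lay below every control library for Lifr. Its sgRnf19a_IR libraries overlapped the untreated sgRnf19a libraries, with a slightly lower mean and replicate 4 the highest. The untreated sgRnf19a libraries all lay below the untreated control libraries. For the regulators Nmi and Usp18 the log2 difference was 1.99 and 1.16 (adjusted p = 0.0255 and 0.0341). The antiviral genes Ifit3 and Mx1 differed by 2.89 and 2.86 (adjusted p = 0.0154 and 0.0255), and the GTPase gene Gbp2 by 2.92 (adjusted p = 0.0162). With each of the 12 libraries left out in turn, a choice made after seeing the data, the signs held for all 9 genes, but only Il15 was called in every case (2.89 to 3.14). In untreated sgRnf19a, Il15 averaged 0.428 CPM, with 96 counts summed over 3 libraries, and Il6 had 102 counts. About 4 counts seem to stand for 1 read pair. If so, the precision of both differences is limited. Ifit3 was not called without control_IR replicate 5 or sgRnf19a replicate 2 (adjusted p = 0.0716 and 0.0585). Gbp2 was not called without control_IR replicate 1 or 5 or sgRnf19a replicate 2 or 3 (0.0557 to 0.0755). Mx1 was called in 5 of 12 cases, Nmi in 4, Irf1 and Usp18 in 3, and Il6 and Lifr in 2, with adjusted p of up to 0.0912 for Mx1, 0.0956 for Nmi, 0.0967 for Irf1, 0.123 for Usp18, 0.134 for Il6 and 0.144 for Lifr. Without control_IR replicate 5 or sgRnf19a replicate 2, the call of Il15 was the only one of the 9 that held.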

How the results depend on the processing

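With the guide in untreated cells, 1131 genes were called, against 1728 with DESeq2, 2825 with only the groups compared in the fit, 3262 with a replicate block on the labels' numbers and 642 to 911 with a library left out. With the guide in IR-treated cells, 6140 were called, against 2797 with only the groups compared and 3877 to 7612 with a library left out. For the difference between the IR responses, 124 genes were called, against 1677 with DESeq2, 2767 with a replicate block on the column numbers, 350 after the length and GC correction, 80 on log2(FPKM + 0.1) and 5 to 2624 with a library left out; of the 9 genes 1 was called, against 4, 3, 3, 0 and 0 to 6 under the same settings. The replicate numbers were not taken to pair the libraries: correlations of deviations were -0.164, 0.135 and 0.208 for the untreated pairs that share a number in the labels, and -0.106 to 0.508 for the 8 other pairs that share a column number, with 0.508 for sgRnf19a_IR and control number 3 and 0.313 for sgRnf19a_IR and control_IR number 4. For IR, 4722 to 8773 genes were called in sgRnf19a cells and 7383 to 8144 in control cells with a library left out. Signs turned, all uncalled, for Socs1 with the guide untreated (0.15 corrected; -0.16 to 0.10 with a library left out), for the Stat2 difference (-0.084 corrected, -8.29e-05 with counts divided by 4; -0.14 to 0.14), for the Socs3 difference (0.15 corrected; -0.28 to 0.15), for Irf2 with IR in control cells (-0.25 and -0.31 on log2(FPKM + 1) and log2(FPKM + 0.1)), for Stat3 with IR in sgRnf19a cells (-0.35 and -0.37; -0.070 to 0.23) and for Socs3 with IR in sgRnf19a cells (-0.000472 and -0.00579). The causes were not tested. Low counts piled up at multiples of 4, so about 4 counts seem to stand for 1 read pair. If so, the precision of Socs1, Il15 and Il6 in untreated cells is limited.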
